A study of Mus musculus with 2 samples.

Results

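The peaks described here are open chromatin regions inside the first introns of protein-coding genes in mouse ileal enteroids, away from any promoter. A broad peak was taken when its midpoint lay in the first intron of the longest transcript of a protein-coding gene and no base of the peak lay within 1 kb of an annotated transcription start site. The control list held 7153 such peaks among 90445 (7.91%) and the Taf4-inactivated list 6073 among 71282 (8.52%). Merging overlapping peaks of both lists left 10163 non-redundant first-intron regions among 118502 (8.58%). The positions are on mm9, the build of the peak files, and the genes are those of the GENCODE annotation of that build. Of its 22372 protein-coding genes with a coding transcript, 19395 had a first intron.

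The first intron of a gene lies directly downstream of its promoter and is often the longest one, and it commonly carries enhancers and other regulatory elements that act on the gene that hosts them or on a neighbour. Such elements are bound by transcription factors, lose nucleosomes and so become accessible to the Tn5 transposase used in ATAC-seq. Taf4 is a subunit of TFIID, the general transcription factor that recognises core promoters and recruits RNA polymerase II. In the intestine, distal open regions are typically occupied by factors such as Cdx2, Hnf4a and Gata4, and by AP-1 dimers of Jun and Fos proteins.

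ATAC-seq was performed on 1 library of control enteroids (Taf4 lox/lox, labelled WT) and 1 library of enteroids in which Taf4 was inactivated (Taf4 lox/lox::VilCreERT2, labelled KO), from ileum of 4-month-old mice of the C57Bl6/129sv strain. Both carried the floxed Taf4 alleles and both received 4-hydroxytamoxifen (4-OHT) at 1 µM for 3 days. The Cre recombinase was present in the Taf4-inactivated enteroids alone, under the villin promoter, which is active in epithelial cells of the gut. The comparison asks how chromatin accessibility differs soon after Taf4 is lost. With 1 library per genotype, no difference between genotypes could be tested, and intervals in parentheses are exact Clopper-Pearson 95% intervals that cover counting error alone.

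The background level per peak solved from the fold enrichment and p of narrow peaks was 1.65 times higher in control than in Taf4-inactivated enteroids. It stands in for depth, since the number of reads was unknown here. Start site peaks were found for 9 of 10 epithelial marker genes in control and all 10 in Taf4-inactivated enteroids, and for 0 and 1 of 8 immune markers (Cd3g in the latter). Both lists had start site peaks for 5 of 8 stromal and muscle markers and for 1 of 4 endothelial markers. Markers of the enteric nervous system had one for 3 of 6 genes in control and 2 of 6 in Taf4-inactivated enteroids. The part of other cell types or of depth in the differences given here was not tested.

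The sequences below are the middle 200 bp of 12 first-intron peaks, read from the mm9 genome on the plus strand, and they show the DNA behind the strongest peaks of each kind. Capitals mark matches to the GATA sequence AGATAA or TGATAA, or to the CDX sequence TTTATNG, on either strand, and a stretch with no capitals held neither these nor the AP-1 sequence TGACTCA. The first 4 are the strong peaks of highest fold that were found in control enteroids alone, where strong means in the top 10% of a list by fold enrichment over the local background.
Fam190a, chr6:61183763-61183962: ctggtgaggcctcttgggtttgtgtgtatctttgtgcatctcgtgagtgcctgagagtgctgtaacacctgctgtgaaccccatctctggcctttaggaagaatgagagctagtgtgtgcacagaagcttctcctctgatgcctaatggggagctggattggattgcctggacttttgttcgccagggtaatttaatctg
E2f3, chr13:30058660-30058859: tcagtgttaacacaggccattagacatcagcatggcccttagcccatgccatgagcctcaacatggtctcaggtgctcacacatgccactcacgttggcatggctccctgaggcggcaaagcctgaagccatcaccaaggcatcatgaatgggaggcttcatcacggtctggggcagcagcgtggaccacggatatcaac
Dgki, chr6:37221270-37221469: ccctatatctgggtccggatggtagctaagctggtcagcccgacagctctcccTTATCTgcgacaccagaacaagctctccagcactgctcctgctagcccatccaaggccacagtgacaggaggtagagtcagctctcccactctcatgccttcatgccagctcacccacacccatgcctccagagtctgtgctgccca
Zc3h12c, chr9:51957529-51957728: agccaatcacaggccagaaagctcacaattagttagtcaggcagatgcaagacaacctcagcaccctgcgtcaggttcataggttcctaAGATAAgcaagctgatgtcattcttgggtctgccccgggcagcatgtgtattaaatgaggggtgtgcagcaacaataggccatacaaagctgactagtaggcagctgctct
The next 4 are the corresponding peaks found in Taf4-inactivated enteroids alone.
Stat3, chr11:100785907-100786106: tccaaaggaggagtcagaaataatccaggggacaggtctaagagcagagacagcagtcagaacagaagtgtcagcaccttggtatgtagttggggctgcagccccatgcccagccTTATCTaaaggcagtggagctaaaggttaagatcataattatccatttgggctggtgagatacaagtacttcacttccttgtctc
Akr1e1, chr13:4606161-4606360: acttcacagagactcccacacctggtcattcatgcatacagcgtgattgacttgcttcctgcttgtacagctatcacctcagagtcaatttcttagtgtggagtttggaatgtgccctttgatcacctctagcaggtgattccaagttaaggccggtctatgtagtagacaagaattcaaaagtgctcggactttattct
Shroom3, chr5:93167556-93167755: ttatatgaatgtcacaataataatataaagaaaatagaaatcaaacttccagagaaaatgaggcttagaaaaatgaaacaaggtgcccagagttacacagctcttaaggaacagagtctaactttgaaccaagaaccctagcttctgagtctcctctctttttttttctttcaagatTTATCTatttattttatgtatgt
Dhrs9, chr2:69224317-69224516: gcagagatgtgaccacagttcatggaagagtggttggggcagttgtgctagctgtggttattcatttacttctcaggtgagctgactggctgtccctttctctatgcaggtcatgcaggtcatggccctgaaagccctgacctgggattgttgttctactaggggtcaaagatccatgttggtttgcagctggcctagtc
The last 4 are the peaks in both lists whose fold had the highest mean percentile within the lists.
Filip1l, chr16:57391553-57391752: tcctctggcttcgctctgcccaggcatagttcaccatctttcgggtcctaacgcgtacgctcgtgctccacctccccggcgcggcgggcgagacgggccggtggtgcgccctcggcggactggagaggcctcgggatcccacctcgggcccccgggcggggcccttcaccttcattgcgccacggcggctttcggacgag
4930468A15Rik, chrX:73844107-73844306: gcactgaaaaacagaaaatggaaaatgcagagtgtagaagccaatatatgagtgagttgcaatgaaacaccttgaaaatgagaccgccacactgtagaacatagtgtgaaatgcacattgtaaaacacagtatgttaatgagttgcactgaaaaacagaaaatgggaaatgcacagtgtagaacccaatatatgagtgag
Galnt7, chr8:60080904-60081103: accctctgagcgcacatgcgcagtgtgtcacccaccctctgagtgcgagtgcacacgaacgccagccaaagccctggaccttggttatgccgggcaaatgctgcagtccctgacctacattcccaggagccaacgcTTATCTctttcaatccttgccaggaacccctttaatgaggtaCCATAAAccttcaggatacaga
Grk5, chr19:61000548-61000747: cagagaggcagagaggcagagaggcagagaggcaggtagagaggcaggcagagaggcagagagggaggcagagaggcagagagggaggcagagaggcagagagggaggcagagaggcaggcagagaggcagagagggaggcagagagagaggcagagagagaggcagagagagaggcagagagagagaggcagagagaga
The Grk5 sequence consisted of short units in tandem. In the 4930468A15Rik sequence, the stretch at its start recurred at its end with few changes. A search of the genome for each whole peak, requiring 90% identity over 90% of its length, returned the peak itself and no other place for 11 of the 12 peaks and 6 places for Grk5. At 80% identity over 50% of the length, 6517 places matched Grk5, 6 matched 4930468A15Rik, 4 matched Filip1l and 3 matched Dgki, and for the other 8 there was 1. The search covered the mm9 assembly alone, so it could not find copies that the assembly lacks, and 1 match does not show a unique sequence. The part of repeated sequence in the height of these peaks was not tested.

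First-intron peaks were recovered in both libraries more often than peaks of later introns. In control enteroids, 4051 of 7153 first-intron peaks had no overlapping peak in the Taf4-inactivated list, 56.6% (55.5 to 57.8), beside 65.1% (64.5 to 65.8) for peaks of later introns, 60.3% (59.8 to 60.8) for intergenic peaks and 52.7% for all control peaks. In Taf4-inactivated enteroids, 2950 of 6073 had no partner in control, 48.6% (47.3 to 49.8), beside 51.9% (51.1 to 52.7) for later introns, 48.3% (47.7 to 48.9) for intergenic peaks and 39.8% for all peaks of that list. The share was thus lower than in later introns in both lists, and near the intergenic share in the Taf4-inactivated list. The difference from later introns was −8.51 percentage points (−9.84 to −7.18) in control and −3.35 points (−4.85 to −1.85) in Taf4-inactivated enteroids. At a −log10 q of 5 or more it was −3.31 points (−7.62 to 1.00) and −2.67 points (−5.51 to 0.18), intervals that include 0. Start site peaks, with 21.2% and 11.8% without a partner, lay far below every distal class.

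**Figure D1:**
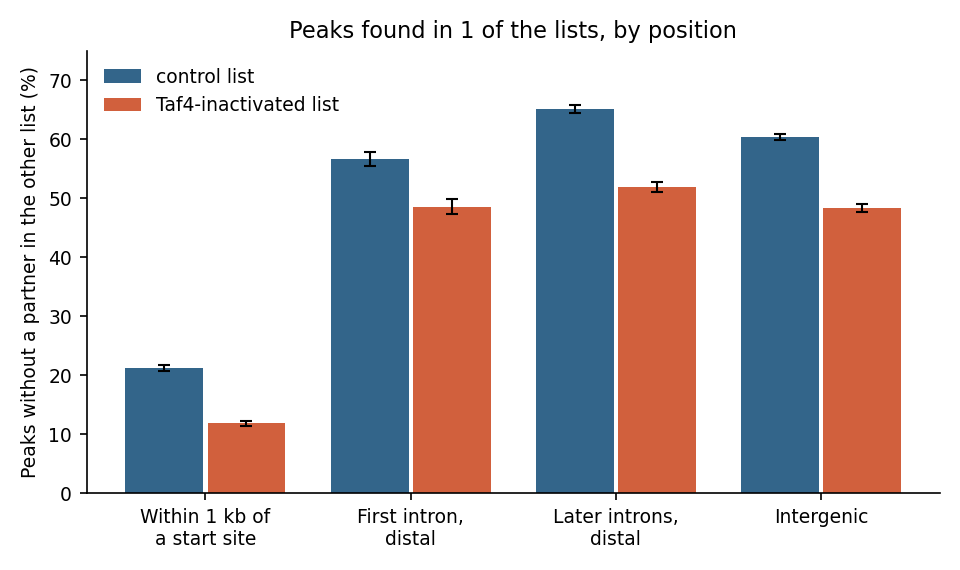
Bars give the percentage of peaks of each list without an overlapping peak in the other list, by position, and error bars are exact 95% intervals. First-intron peaks (56.6% in control, 48.6% in Taf4-inactivated enteroids) sit below later-intron peaks (65.1% and 51.9%) in both lists.

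Of the non-redundant first-intron regions, 3162 (31.1%) were in both lists, 4051 (39.9%) in control alone and 2950 (29.0%, 28.1 to 29.9) in Taf4-inactivated enteroids alone. In later introns the corresponding shares were 26.5%, 46.4% and 27.1%, and in intergenic DNA 29.0%, 43.9% and 27.2%. There were 1.37 control-alone regions for each Taf4-inactivated-alone region in first introns, 1.71 in later introns and 1.61 in intergenic DNA. At start sites there were 2.01. The excess of control-alone regions held at the threshold of the deposited lists and turned at a stricter one: at a −log10 q of 2 or more in both lists, 45.9% of 3094 control and 55.8% of 3809 Taf4-inactivated first-intron peaks had no partner.

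The difference from later introns was smaller at matched height and width. When later-intron peaks were weighted to the fold deciles and width classes of the first-intron peaks, their share without a partner was 63.4% in control and 50.2% in Taf4-inactivated enteroids, still above 56.6% and 48.6%. Intergenic peaks weighted in this way gave 61.4% and 48.4%. Weighted instead to the distance of first-intron peaks from start sites, later-intron peaks gave 64.5% and 51.0%. Intergenic peaks then gave 57.5%, near the first-intron share in control, and 46.2%, below it in Taf4-inactivated enteroids. Among control peaks of decile 9 of fold, 24.3% (21.0 to 27.9) of first-intron peaks lacked a partner beside 37.0% (34.4 to 39.7) of later-intron peaks, and in the lowest decile 65.6% (62.4 to 68.7) beside 72.1% (70.4 to 73.8). In the Taf4-inactivated list, the lowest decile gave 57.9% (54.2 to 61.5) beside 58.2% (56.0 to 60.3), and the intervals of first and later introns were separate in decile 7 alone, at 44.6% (40.7 to 48.5) beside 51.6% (48.9 to 54.2). In deciles 4 and 5 of that list the first-intron share was the higher one, at 61.6% beside 57.6% and 55.4% beside 54.5%. The difference thus had the same direction in all 10 deciles in control enteroids and in 8 of 10 in Taf4-inactivated enteroids.

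**Figure D2:**
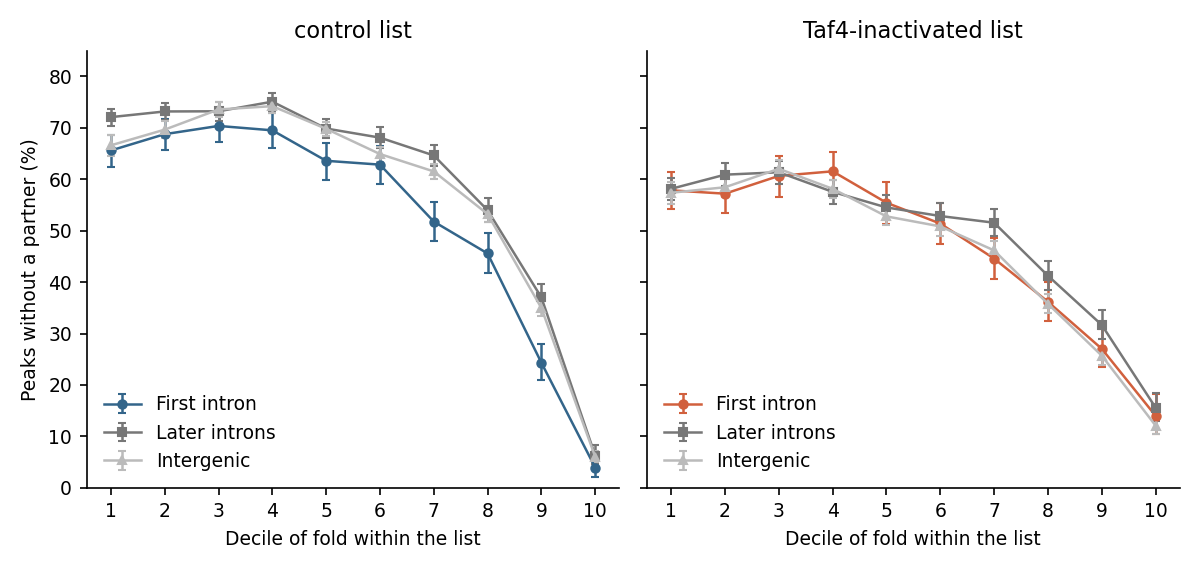
Points give the percentage of peaks without a partner by decile of fold within each list, for first-intron, later-intron and intergenic peaks, with exact 95% intervals. In control enteroids the first-intron line runs below the later-intron line at every decile, from 65.6% beside 72.1% in the lowest to 3.94% beside 6.27% in the highest.

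The limit of 1 kb from a start site fell among peaks with the following shares. Just inside it, at 1000 to 1500 bp, 56.5% of 283 control and 51.4% of 255 Taf4-inactivated peaks had no partner. First-intron peaks just outside it, at 500 to 1000 bp and so not counted, gave 58.9% of 241 and 37.9% of 219.

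Among strong peaks, those found in one library alone were mostly from Taf4-inactivated enteroids. There were 46 strong first-intron peaks without a partner among 328 in Taf4-inactivated enteroids, 14.02% (10.5 to 18.3), and 14 among 355 in control, 3.94% (2.17 to 6.53). The shares over all strong peaks of these lists were 5.65% and 2.38%, and those of strong later-intron peaks were 15.6% (13.1 to 18.5) and 6.27% (4.59 to 8.32), and the intervals of first and later introns overlapped in both lists. Ranked by −log10 p in place of fold, 12 strong first-intron peaks of the Taf4-inactivated list and 1 of the control list had no partner.

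The strongest first-intron peak of the Taf4-inactivated list alone lay in Stat3, which encodes the transcription factor activated by interleukin-6 family cytokines. It spanned 353 bp on chromosome 11 (100785831 to 100786183), 14711 bp from the start of the gene, with a fold of 4.61 at percentile 97.7 of its list, and the nearest control peak was 13882 bp away. Akr1e1, an aldo-keto reductase gene, held a peak of fold 4.43 at 2159 bp from its start. Shroom3, whose product drives apical constriction of epithelial cells, held one of fold 4.36 and 1207 bp, and had no start site peak in either list. In Dhrs9, a retinol dehydrogenase gene, the peak had a fold of 4.34 and held 4 GATA matches over its 715 bp. None of these 4 peaks held an AP-1, HNF4, CDX or CTCF match.

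The strongest first-intron peaks of control alone were weaker within their list, at percentiles 93.1 to 94.8. They lay in Fam190a (fold 2.87), in E2f3, which encodes an activator of S-phase genes (fold 2.77), in Dgki, a diacylglycerol kinase gene (fold 2.76), and in Zc3h12c, a CCCH zinc finger gene (fold 2.74). All 4 host genes had start site peaks in both lists, and the nearest peak of the Taf4-inactivated list was 9733 to 25772 bp away.

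The highest shared first-intron peak lay in Filip1l on chromosome 16 (57391431 to 57391875 in control), with folds of 7.79 in control and 9.31 in Taf4-inactivated enteroids and a GC content of 62.7%. It also lay in the first intron of 2610528E23Rik, and Filip1l had no start site peak. Galnt7, which encodes an enzyme of mucin-type O-glycan synthesis, held a shared peak with folds of 4.35 and 6.57, 50824 bp from its start, with 3 GATA matches and 1 CDX match. Grk5, a G protein-coupled receptor kinase gene, held the repeat shown above, with folds of 4.57 and 5.41. The folds of the 2 lists are not on a common scale and are given side by side only.

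Peaks with a partner were wider than peaks without one in both lists. The median width of first-intron peaks was 495 bp for control (quartiles 303 and 837) and 435 bp for Taf4-inactivated peaks (283 and 726). Those with a partner had medians of 587 and 520 bp (control first), and those without one 428 and 347 bp. Peaks under 300 bp made up 31.0% of control peaks without a partner and 16.4% of those with one, and 39.5% and 18.4% in Taf4-inactivated enteroids. A wider peak has more bases with which to overlap another. With overlap of at least 50% of both peaks required, the difference between medians shrank from 159 to 53.5 bp for control peaks, while that of Taf4-inactivated peaks went from 173 to 151 bp.

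First-intron peaks were close in width to other distal peaks and much narrower than start site peaks. Later-intron peaks had medians of 514 and 438 bp and intergenic peaks 492 and 442 bp in control and Taf4-inactivated enteroids, against 940 and 896.5 bp for start site peaks. Within width classes, control first-intron peaks lacked a partner in 71.2% of cases under 300 bp and in 36.3% at 1000 bp or more, beside 77.3% and 45.8% in later introns. Control intergenic peaks gave 76.0% and 36.7%. In Taf4-inactivated enteroids first-intron peaks gave 67.0% (64.7 to 69.2) and 21.5% (18.6 to 24.7). Later-intron peaks of that list gave 69.8% (68.4 to 71.2) and 25.8% (23.8 to 28.0), so these intervals overlapped. The lower share than in later introns was thus seen among narrow and wide peaks in control, and in direction alone in Taf4-inactivated enteroids.

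**Figure D3:**
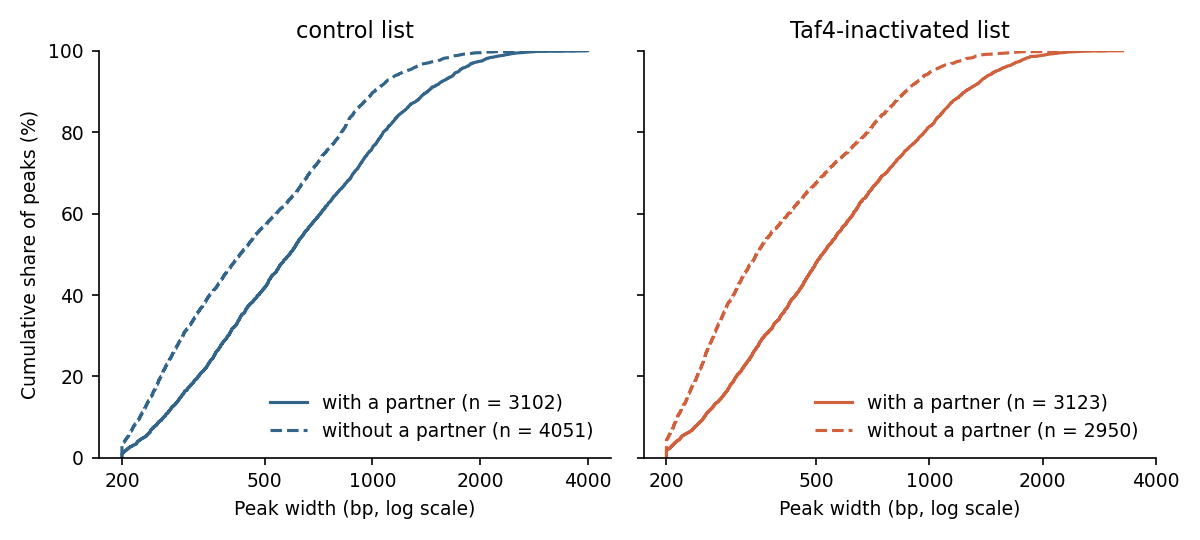
Lines give the cumulative percentage of first-intron peaks up to each width (bp, log scale) in each list, for peaks with a partner (solid) and without one (dashed). The dashed lines lie to the left, with medians of 428 beside 587 bp for control and 347 beside 520 bp for Taf4-inactivated peaks.

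Shared and strong peaks were denser in first introns than in later ones. The part of all first introns more than 1 kb from any start site came to 202 Mb. Bases next to that limit could not hold a midpoint, since the whole peak had to lie beyond it. The density was 35.4 peaks per Mb in control and 30.05 in Taf4-inactivated enteroids. Later introns had 33.9 and 24.9, and intergenic DNA had 22.2 and 17.2. The ratio of first to later introns was 1.30 and 1.29 for shared peaks and 1.502 and 1.33 for strong peaks. For peaks without a partner it was 0.907 in control and 1.13 in Taf4-inactivated enteroids. Over all control peaks the ratio of 1.04 fell to 1.00 without the single first intron over 1 Mb described below, while it stayed at 1.17 in Taf4-inactivated enteroids.

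Along the intron, density was highest between 5 and 20 kb from the start of the host gene. In control enteroids it was 18.9 peaks per Mb under 2 kb, 43.4 at 5 to 10 kb, 44.5 at 10 to 20 kb and 27.1 beyond 100 kb. In Taf4-inactivated enteroids it was 18.7, 41.4, 37.4 and 18.5 at the same distances. The lists were thus nearly equal in density up to 10 kb and parted further from the gene start. The rule itself lowered the density under 2 kb. A peak needed all its bases beyond 1 kb of a start site, while every base there counted as available. The share without a partner in control rose from 50.9% (48.1 to 53.8) at 5 to 10 kb to 66.0% (62.8 to 69.1) at 50 to 100 kb, while in Taf4-inactivated enteroids it was 47.6% (44.7 to 50.5) and 53.9% (50.02 to 57.7). Beyond 100 kb it was 64.9% (61.3 to 68.4) and 46.3% (41.9 to 50.9), and without the intron over 1 Mb 71.3% of 369 and 57.7% of 253. The median distance from the host start was 18891 bp for control peaks, against 16574 bp for Taf4-inactivated peaks.

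**Figure D4:**
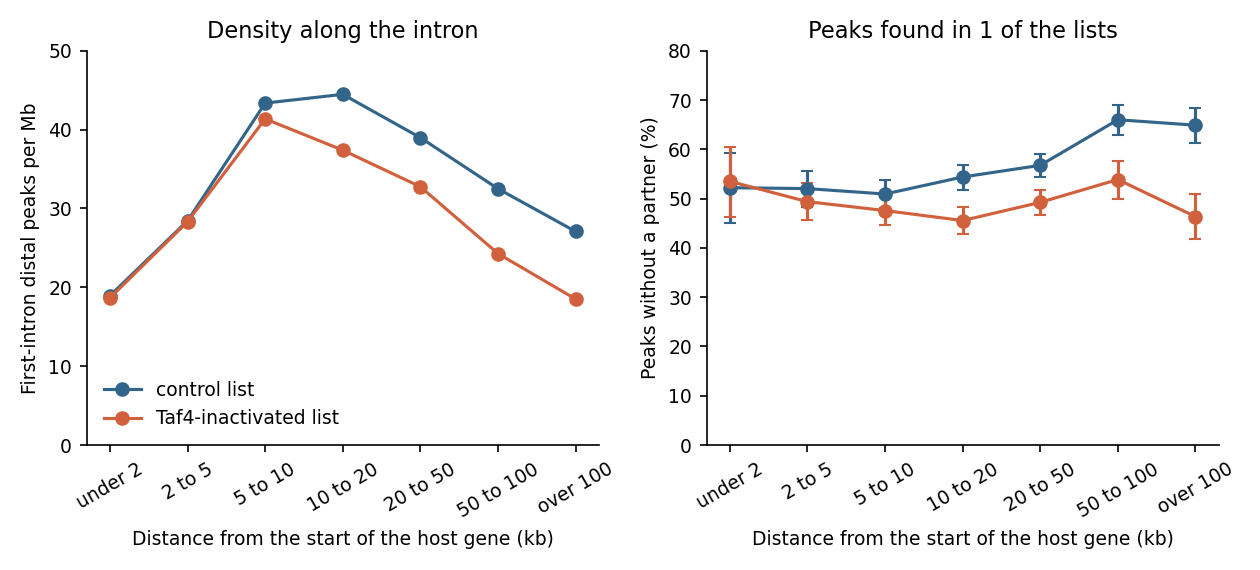
The left panel gives first-intron peaks per Mb of available sequence and the right panel the percentage without a partner (exact 95% intervals), by distance from the start of the host gene, for each list. Density peaks at 5 to 20 kb, and the control share without a partner rises from 50.9% at 5 to 10 kb to 66.0% at 50 to 100 kb.

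Most first-intron peaks lay in genes with an open promoter. Both lists had a peak at the start site of the host gene for 82.7% of control and 83.8% of Taf4-inactivated first-intron peaks. Among genes with a start site peak in both lists, 33.1% of 9291 held at least 1 region, at 56.8 regions per Mb, beside 15.1% of 3361 genes with no start site peak, at 24.1 per Mb. In control enteroids, 55.8% (54.5 to 57.0) of first-intron peaks lacked a partner where the host start site had a peak in both lists, 66.3% (61.3 to 71.1) where it had one in control alone and 62.6% (55.3 to 69.5) where it had one in Taf4-inactivated enteroids alone. In Taf4-inactivated enteroids, the shares for these hosts were 48.2% (46.8 to 49.6), 52.3% (46.5 to 58.0) and 52.8% (43.7 to 61.7). Where the host had no start site peak, the share was 57.2% (53.3 to 61.0) in control and 48.9% (44.7 to 53.2) in Taf4-inactivated enteroids. These were near the shares of hosts with a peak in both lists.

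First-intron regions were spread over 3942 of the 13901 genes whose first intron could hold one (28.4%), and 1976 genes held a shared region. Regions were counted once per host gene. Of these genes, 2039 held 1 region, 1374 held 2 to 4, 413 held 5 to 9 and 116 held 10 or more. Counts followed length, with a median of 17.3 kb available in genes with a region and 2.36 kb in genes without, and a Spearman correlation of 0.63 between regions and available kb across the genes with a region, given as a description.

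Gm20388 (ENSMUSG00000092329.1) stood far apart, with 535 regions. The first intron of its longest transcript is annotated over 4.38 Mb of chromosome 8 (122434840 to 126819257), the only first intron over 1 Mb, and 72 other protein-coding genes lie inside it. It held 432 control peaks (6.04% of the first-intron peaks) and 288 Taf4-inactivated peaks (4.74%). Of its regions, 185 were shared, 250 were in control alone and 100 in Taf4-inactivated enteroids alone. Without it, 56.6% of 6721 control and 49.3% of 5785 Taf4-inactivated first-intron peaks had no partner, and the ratio of control-alone to Taf4-inactivated-alone regions was 1.33.

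The genes that followed had long first introns, and most of their regions were in one list alone. Over the regions of all genes, 31.2% were shared. St6galnac3, a sialyltransferase gene with a first intron of 216 kb, held 26 regions, of which 4 were shared, 13 in control alone and 9 in Taf4-inactivated enteroids alone. Tshz2, a zinc finger transcription factor gene, held 25 (4 shared, 15 and 6), and Dpp6, which encodes an auxiliary subunit of potassium channels, held 23 (2 shared, 15 and 6). Rora, a nuclear receptor gene, held 22 over 542 kb (4 shared, 13 and 5), or 0.41 per 10 kb. Control-alone regions outnumbered Taf4-inactivated-alone regions in each of these 4 genes, as they did over all genes (39.7% beside 29.0%). At a −log10 q of 2 or more in both lists, St6galnac3 kept 4 regions, Tshz2 9, Dpp6 6 and Rora 9.

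In another set of long introns, shared regions were as many or nearly as many as those of control alone. Sorcs2, a sortilin-family receptor gene, held 23 regions (10 shared, 10 and 3), and Agap1, a regulator of Arf GTPases in endosomal traffic, held 20 (9 shared, 7 and 4). Rbm20, a splicing regulator gene, also held 20 (9 shared, 9 and 2). Prkce, the gene of protein kinase C epsilon, held 23 (8 shared, 7 and 8). Maml3, a Notch coactivator gene, held 18 (6 shared, 7 and 5), in a tie of 5 genes at that count. Hivep3 (21), Xkr6 (20), Galntl4 (20), 4933407C03Rik (19) and Camk1d (19) completed the 15 genes with the most regions. Of the 15, 13 had start site peaks in both lists, and only 7 remained among the 15 highest when shared regions alone were counted.

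**Figure D5:**
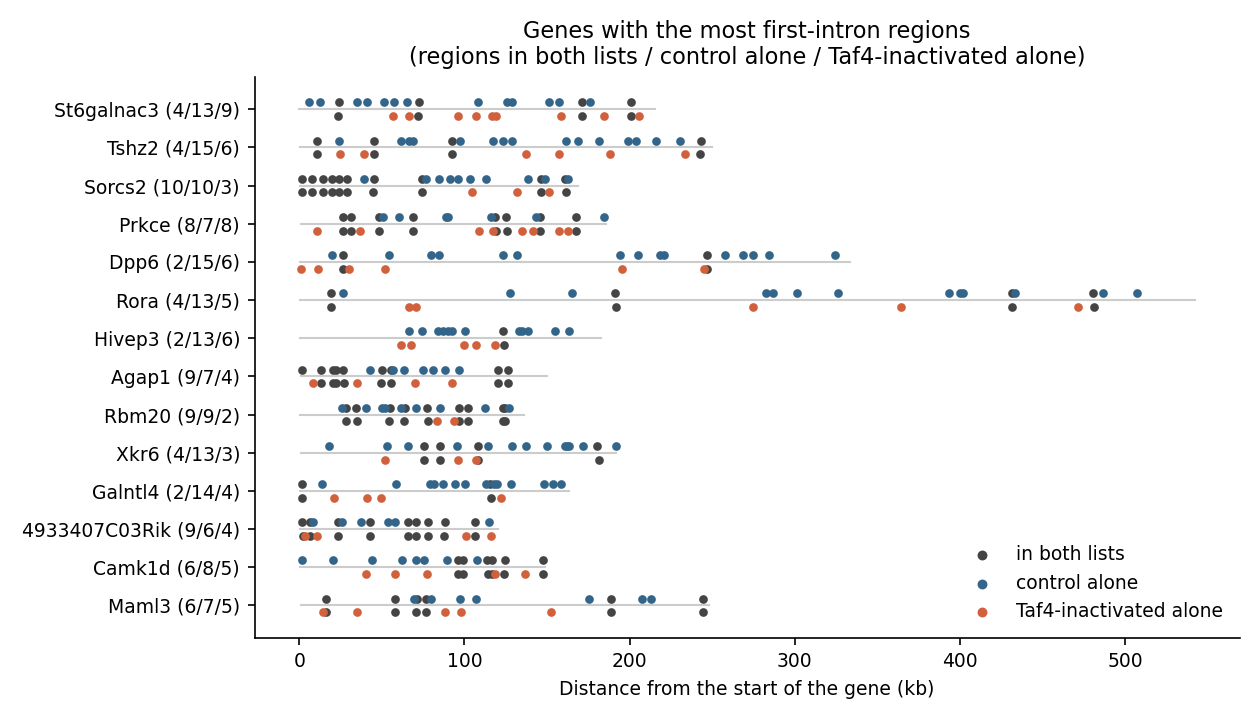
Each grey line is the first intron of 1 of the 14 genes with the most regions after Gm20388, by distance from the start of the gene (kb), with control peaks above and Taf4-inactivated peaks below the line. Peaks of shared regions are dark, and the counts beside each name (shared, control alone, Taf4-inactivated alone) show 4, 13 and 9 for St6galnac3 and 10, 10 and 3 for Sorcs2.

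Where regions were counted per length, genes with shorter first introns came first. Over all first introns there were 0.504 regions per 10 kb. Grhl3, a grainyhead transcription factor of epithelial barriers, held 4 regions at 3.55 per 10 kb, and its start site had a peak in Taf4-inactivated enteroids alone, at percentile 11.3. Slc9a3r1, which encodes a brush border scaffold that binds ezrin, held 4 at 3.33 per 10 kb, 2 of them shared. Src, the tyrosine kinase gene, held 4 at 2.90 per 10 kb. Otof, Gnb4, Tesc, Papss1 and Birc3 were the others of the 8 densest, with 3 to 6 regions each.

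Pde3a, a phosphodiesterase gene, held regions of the Taf4-inactivated list alone. Its first intron of 155 kb carried 8 Taf4-inactivated peaks and 0 control peaks, at 3541 to 86755 bp from the start of the gene and at folds of 2.37 to 3.58, or percentiles 43.0 to 88.4. Both lists had a peak at its start site, which ranked at percentile 93.9 of the control list and 79.0 of the other. Prdm16, a transcription factor gene, held 15 regions, with 3 shared, 5 in control alone and 7 in Taf4-inactivated enteroids alone.

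The targeted gene, annotated as Taf4a, held 5 first-intron regions. One was shared, with folds of 1.78 in control and 1.96 in Taf4-inactivated enteroids. Of the 3 in control alone, the highest spanned 319 bp at percentile 83.6 of its list, and the 1 in Taf4-inactivated enteroids alone lay at percentile 50.1. A start site peak was present in both lists and ranked at percentile 74.7 of the control list and 58.7 of the other. Over the TFIID genes, 2 of 9 that could hold a region held one (22.2%, beside 28.4% over all genes). Per length, these 9 genes had 0.849 regions per 10 kb, beside 0.504 over all first introns. Of their regions, 1 was shared, 4 were in control alone and 1 was in Taf4-inactivated enteroids alone.

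Most genes of cell junctions and the actin cortex held first-intron regions, and fewer of these were in control alone than in either other state. Of 20 such genes that could hold a region, 18 did (90%), beside 28.4% over all genes. Counts followed intron length, which was not matched between this list and other genes. The 18 genes held 68 regions at 0.787 per 10 kb, beside 0.504 over all first introns. Of these, 31 were shared, 24 were in Taf4-inactivated enteroids alone and 13 were in control alone, 19.1% (10.6 to 30.5), beside 39.7% over the regions of all genes. Myo5b, the motor of apical recycling endosomes in enterocytes, held 11 regions, 8 of them shared and 3 in Taf4-inactivated enteroids alone. Its shared peak 115 kb into the gene had folds of 2.83 in control and 3.65 in Taf4-inactivated enteroids. Myo10, the motor of filopodia, held 7 (5 shared and 2 in Taf4-inactivated enteroids alone), and Ptprk, a receptor phosphatase of cell contacts, held 5 (1 shared and 4 in Taf4-inactivated enteroids alone). Pard3, a polarity gene, held 9 (3 shared, 4 in control alone and 2 in Taf4-inactivated enteroids alone). Itga6 held 4 (3 shared, 0 and 1), Actn4 4 (2, 0 and 2) and Magi3 4 (0, 1 and 3).

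In enterocyte genes and intestinal transcription factors, 1 region in all was in control alone. Of 18 enterocyte genes, 10 held a region (55.6%, beside 28.4% over all genes). They held 18 regions, or 1.15 per 10 kb beside 0.504 over all first introns. Of these, 9 were shared, 8 were in Taf4-inactivated enteroids alone and 1 was in control alone, 5.56% (0.141 to 27.3), beside 39.7% over all genes. Ezr, which encodes ezrin of the brush border, held 5 (2 shared, 1 and 2), and Slc15a1, the peptide transporter gene, held 3 (1 shared, 0 and 2). Of 21 intestinal transcription factor genes, 8 held a region (38.1%). They held 11 regions, or 0.364 per 10 kb, with 6 shared and 5 in Taf4-inactivated enteroids alone. The count of 0 in control alone allows a share of up to 28.5%. None of these genes held 3 or more regions. These lists and the one of junction genes were chosen with earlier results of these data known, and no test compared them with other genes.

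In nuclear receptor and stem cell genes, the share of regions in control alone was near that of all genes, at 42.6% (28.3 to 57.8) and 43.5% (23.2 to 65.5) beside 39.7%. Of 16 nuclear receptor genes, 10 held a region (62.5%, beside 28.4% over all genes), with a median of 1.5 regions beside 0. Intron length, which counts followed, was not matched between lists and other genes. Per length, nuclear receptor genes had 0.605 regions per 10 kb, beside 0.504 over all first introns. Of their 47 regions, 12 were shared, 20 were in control alone and 15 were in Taf4-inactivated enteroids alone. Rora held 13 of these 20, and without it 8 were shared, 7 were in control alone and 10 in Taf4-inactivated enteroids alone. Rxra, the shared partner of many nuclear receptors, held 7 (2 shared, 3 and 2), Nr1i2, the xenobiotic receptor PXR, held 4 (2, 0 and 2), Vdr, the vitamin D receptor, held 3 (1, 0 and 2) and Rarb, a retinoic acid receptor, held 3 (0, 2 and 1). Of 19 stem cell and Wnt genes, 8 held a region (42.1%, beside 28.4% over all genes). Per length, stem cell and Wnt genes were near all first introns, at 0.514 beside 0.504 regions per 10 kb. Of their 23 regions, 6 were shared, 10 were in control alone and 7 were in Taf4-inactivated enteroids alone. The genes included Ephb2, a receptor that positions crypt cells, with 7 regions (3, 2 and 2). Smoc2, a marker of crypt base stem cells, held 5 (1, 2 and 2). Of 17 secretory genes, 3 held a region (17.6%, beside 28.4% over all genes). Per length the order was the other way, with 1.31 regions per 10 kb in secretory genes beside 0.504 over all first introns. Of their 9 regions, 2 were shared, 5 were in control alone and 2 were in Taf4-inactivated enteroids alone. Creb3l1 held 4 (1, 3 and 0) and Muc4 3 (1, 1 and 1). Of 15 Polycomb genes, 2 held a region (13.3%, beside 28.4% over all genes), at 0.121 regions per 10 kb over the list. Pcgf3 held a shared one and Ezh1 held 1 in Taf4-inactivated enteroids alone.

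Ranks of shared first-intron peaks were related between the lists (Spearman correlation 0.62 across pairs, as a description). Of 3024 pairs of first-intron peaks that overlapped each other best, the median difference in percentile of fold was −1.25 points (Taf4-inactivated minus control), beside −2.98 over all 42491 pairs. In 121 pairs the Taf4-inactivated peak ranked higher by 50 points or more, 4.00% (3.33 to 4.76), beside 2.22% of all pairs and 2.75% (2.37 to 3.17) in later introns. In 102 pairs the control peak did so, 3.37% (2.76 to 4.08), beside 3.2% of all pairs and 3.19% (2.78 to 3.64) in later introns. Ranked by −log10 p, the counts turned to 91 and 118.

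The largest rise in rank was in Oprd1, the delta opioid receptor gene, from percentile 8.58 to 94.8, where a control peak of 1326 bp overlapped a peak of 376 bp by 312 bp. In Ppapdc1a the percentile went from 12.7 to 89.6. The largest falls were in Efhd2, from percentile 78.7 to 0.182, and in Usp6nl, a Rab GTPase-activating protein gene, from 84.9 to 7.88, followed by a pair in the first intron of Gm20388, from 87.9 to 12.9. The spread between libraries of these ranks is unknown with 1 library per genotype.

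AP-1 sequences were more frequent in first-intron peaks than beside them, and most of all in shared and Taf4-inactivated peaks. In windows of 300 bp around the midpoint, TGACTCA was found in 9.25% (8.59 to 9.95) of control first-intron peaks and 11.9% (11.1 to 12.7) of Taf4-inactivated ones, beside 5.25% and 5.80% of windows 3 kb away. All control peaks gave 6.93% and all Taf4-inactivated peaks 9.38%. Among first-intron peaks without a partner it was found in 6.81% (6.06 to 7.63) of control and 11.1% (9.94 to 12.2) of Taf4-inactivated peaks, and in shared peaks in 12.4% and 12.7%. Compared with later introns, with 7.58% (7.22 to 7.95) in control and 11.1% (10.6 to 11.6) in Taf4-inactivated enteroids, the interval was separate in control and overlapped in Taf4-inactivated enteroids.

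GATA and CDX sequences were less frequent in control first-intron peaks than in the DNA 3 kb away, and near that level in the Taf4-inactivated list. AGATAA or TGATAA occurred in 20.4% of control and 26.4% of Taf4-inactivated first-intron peaks, beside 24.9% and 25.8% of the distant windows and 17.0% and 20.6% of all peaks. Among peaks without a partner it was in 18.1% (16.9 to 19.3) of control and 27.9% (26.3 to 29.6) of Taf4-inactivated peaks. TTTATNG was in 9.81% and 12.3%, beside 13.6% and 13.5% of the distant windows and 8.66% and 10.3% of all peaks. The HNF4 sequence CAAAGTCCA was rare, in 0.951% of control and 1.68% of Taf4-inactivated first-intron peaks, beside 0.370% and 0.519% of distant windows and 0.745% and 1.46% of all peaks.

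The CTCF pattern was less frequent in first-intron peaks of Taf4-inactivated enteroids than in their other distal peaks. It was in 1.35% (1.08 to 1.67) of these first-intron peaks, beside 2.49% (2.25 to 2.75) of later-intron, 2.66% of intergenic and 2.15% of all peaks. In control enteroids it was in 0.797% (0.604 to 1.03), beside 0.987% (0.856 to 1.13) of later-intron, 1.09% of intergenic and 0.975% of all peaks, and the intervals of first and later introns overlapped. A match is a description of the sequence and not a binding site.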

How the data were processed

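The data were 2 ATAC-seq peak lists, 1 for each genotype given in the sample labels. Reads were demultiplexed with bcl2fastq 2.17.1.14, mapped by the authors to mm9 with Bowtie 1.0.0, keeping unique matches, and broad peaks were called in each library with MACS2 2.1.1, with versions per the submitters' processing notes. The cultures came from ileal crypts of mice of each genotype. How duplicate and mitochondrial reads were treated is not given in the sources used here. The deposited score is the −log10 q multiplied by 10 and truncated. For fold, the deposited values give enrichment relative to the library's own local background, and the deposited −log10 p and −log10 q are averages over each peak. Depth sets how many peaks pass, so fold was compared as a percentile within each list.

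The longest transcript was the coding one with most exonic bases. Peaks were partners when they overlapped by at least 1 bp. Regions with several host genes (114) were counted once for each gene. Relative depth was estimated as the 5th percentile of the solved background over the narrowest 10% of peaks. Python 3.11.15, pandas 2.3.3, scipy 1.17.1, pysam 0.24.0, samtools 1.23.1 and blastn 2.17.0 were used, and the overlap, annotation and depth steps were tested on simulated data.

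Named genes were the 15 with the most regions, the 8 with the most per 10 kb among introns with at least 10 kb available, the 5 with the most peaks without a partner in each list, the 4 strong peaks of highest fold without a partner in each list, the 4 shared peaks of highest mean percentile, the 3 pairs that rose most and the 3 that fell most in rank, and list genes with at least 3 regions. Some genes that this rule names are not reported here. Pcgf3 and Ezh1 were named after their values were seen. The members, gene lists and comparisons were chosen with earlier results of these data known. Of the listed symbols, Troy and Gfi1 had no match in the annotation. No p-value was computed. Alternatives changed the q threshold, overlap, transcript choice, start site distance, width and ranking.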

Additional observations from a re-analysis of the deposited data

How the results depend on the processing

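No paired analysis was possible because each genotype had 1 library and no test was made between them, so no replicate could be left out either. Values are given as control and Taf4-inactivated. First-intron peaks without a partner came to 75.03% and 70.7% with an overlap of 50% of both peaks, to 54.3% and 45.8% when peaks within 500 bp also counted as partners, to 45.9% and 55.8% at a −log10 q of at least 2, to 14.3% and 73.1% at a −log10 q of at least 5, and to 1.32% and 22.0% when those last peaks could have any peak as partner, and in control to 58.0% at a start site distance of 5 kb and 59.3% for peaks of at least 300 bp. The order of the lists thus turned with the q threshold. The difference from later introns stayed negative under each alternative tried, moving in control to −6.62 points at 50% overlap, −12.8 at a −log10 q of 2 and −3.31 at 5. At 5 with any partner it was −1.53 points (−3.24 to 0.19) in control and −1.68 (−4.40 to 1.03) in Taf4-inactivated enteroids. These intervals included 0, as did those at 5 given above. A −log10 q of at least 2 left 3094 and 3809 first-intron peaks (6.95% of control peaks) of median width 459.5 and 415 bp, and of at least 5 left 455 and 1463 (4.23% and 7.15%) of 566 and 484 bp. The share of each list was 8.16% and 8.73% with distance from the midpoint, 8.61% and 9.25% with the longest transcript by span, 5.996% and 6.28% at 5 kb, and 7.43% and 8.12% without introns over 1 Mb. Peaks with a partner were wider by 53.5 and 151 bp at 50% overlap, by 79.5 bp in control at a −log10 q of 5, with an interval of −48.3 to 207 bp that includes 0, and by 210 bp in Taf4-inactivated enteroids at 2. The density ratio to later introns was 1.75 and 1.66 at a −log10 q of 5 and 1.12 and 1.27 at 5 kb, and in control it turned to 0.9997 without introns over 1 Mb. Strong peaks without a partner numbered 1 and 12 by −log10 p (a difference of 3.94 points), 0 and 10 in the top 5%, and 288 and 310 in the top 25% (3.35 points). Pairs higher by 50 points in Taf4-inactivated enteroids and in control numbered 63 and 49 at 50% overlap, and by −log10 p the difference between their shares reversed to −0.89 points. Of the 15 genes with the most regions, 8 stayed at a −log10 q of 2 and 7 with shared regions alone. The cause was not tested. Leaving out introns over 1 Mb, or peaks inside another coding gene, or the gene of a list with the most regions, was chosen after seeing the data. The estimated background, which also depends on the share of reads in peaks, was 1.65 times higher in control, and depth itself was not measured.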
